A study of Mus musculus with 16 samples.

Results

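Tail parts of Fuz;Gpr161 double knockout (DKO) mouse embryos were compared with Tail parts of Gpr161 KO embryos at E10.5, to ask which of the changes seen without Gpr161 are absent when Fuz is lost as well. The comparison rests on 4 of the 16 libraries of the series, 2 titled Tail DKO and 2 titled Tail Gpr161 KO, chosen by title alone. A Tail was the embryo caudal to the forelimbs, and a Head was the part above the third branchial arches. Tail DKO embryos lacked Fuz and Gpr161, Tail Gpr161 KO embryos lacked Gpr161 with Fuz intact, Tail Fuz KO embryos lacked Fuz with Gpr161 intact, and Tail WT embryos had both genes, with n = 2 libraries in each group. Head libraries of the same genotypes served to choose genes by a contrast between Head libraries and to test the difference between regions. Both groups of the main comparison lacked Gpr161, so by genotype they differed in Fuz, and no treatment was given. The labels give the genotype and not the alleles, the strain, the number of embryos in a library or whether replicates were different embryos. The p-values therefore cover the spread among these libraries, which may be technical where both libraries of a group had the same sex. By sex-linked counts the 2 Tail Gpr161 KO libraries differed in sex, so they did not come from the same embryo.

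Gpr161 is an orphan G protein-coupled receptor of the primary cilium. Through cAMP and protein kinase A it favours the repressor forms of the Gli transcription factors, and so it holds Hedgehog target genes down where no ligand is present. Fuz belongs to the planar cell polarity effector complex CPLANE, which recruits intraflagellar transport proteins to the base of the cilium, and cilia are needed both for full Gli activation and for Gli repressor formation. In the caudal embryo, Sonic hedgehog from notochord and floor plate patterns the neural tube from ventral to dorsal and the somite into sclerotome and dermomyotome.

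Expression is given as CPM, the count of a gene scaled to the TMM-adjusted depth of its library, and differences as log2 fold changes with their standard error (SE). A gene was called at a Benjamini-Hochberg adjusted p under 0.05 in edgeR's quasi-likelihood test over 21284 genes. Total counts of the 4 libraries ran from 39062489 to 53680317, and the libraries of a group correlated with each other at r of 0.982 in Tail DKO and 0.981 in Tail Gpr161 KO over the log CPM of all genes tested. By sex-linked counts both Tail DKO libraries were male, while Tail Gpr161 KO 1 was male and Tail Gpr161 KO 2 was female. Both Tail WT libraries were female and both Tail Fuz KO libraries were male, and Head libraries had the same sexes by genotype and replicate number. Sex and genotype therefore cannot be told apart between Tail WT and Tail DKO or Tail Fuz KO. They are partly mixed in comparisons with Tail Gpr161 KO and in the effect of losing Fuz with and without Gpr161. Hox genes of paralogue groups 10 to 13 summed to 247 and 289 CPM in Tail DKO and 387 and 450 CPM in Tail Gpr161 KO, against at most 0.473 CPM in Head libraries of these genotypes. The 31 tested genes of a hypoxia and glycolysis list summed to 30220 and 19030 CPM in Tail DKO and 23840 and 16890 CPM in Tail Gpr161 KO. The fitted level of 12 of 12 macrophage genes was higher in Tail DKO, with sums of 19.98 and 38.1 CPM in Tail DKO and 7.44 and 25.2 CPM in Tail Gpr161 KO, which overlap. Erythroid genes were higher in 16 of 17, with sums of 9269 and 9464 CPM in Tail DKO and 7310 and 5104 CPM in Tail Gpr161 KO. Immediate early and stress genes summed to 707 and 201 CPM in Tail DKO and 379 and 262 CPM in Tail Gpr161 KO, so Tail DKO 1 was the high library. edgeR called no gene of these 4 lists, DESeq2 called 1 stress gene, 3 stress genes were at an unadjusted p under 0.05, and their part in the results was not tested.

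The targeted genes went with the labels. Fuz (ENSMUSG00000011658, chromosome 7) had 0.808 and 1.53 CPM in Tail DKO, against 4.95 and 7.10 CPM in Tail Gpr161 KO, and it had 5.17 and 5.35 CPM in Tail WT. It was 5.13-fold lower in Tail DKO than in Tail Gpr161 KO (log2 -2.36, SE 0.39, adjusted p = 0.0218). Gpr161 (ENSMUSG00000040836, chromosome 1) was low in both groups, at 2.12 and 3.29 CPM in Tail DKO and 4.98 and 4.08 CPM in Tail Gpr161 KO, against 46.8 and 51.5 CPM in Tail WT. Its log2 difference between Tail DKO and Tail Gpr161 KO was -0.74, with a 95% interval of -1.53 to 0.05 and an adjusted p of 0.45. Of the 100 tested genes nearest to Fuz on chromosome 7, 3 were called lower in Tail DKO, a share of 3%, against 0.522% of all genes called in either direction. At an unadjusted p under 0.05 there were 16 of these neighbours, and DESeq2 called 9. The 3 were Med25, Ap2a1 and Bcl2l12, named after their values were seen, and they lay at the places -2, 1 and 7 from Fuz in gene order. Among the 100 nearest to Gpr161, 0 were called by edgeR, 5 were at an unadjusted p under 0.05 and 1 was called by DESeq2.

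Losing Fuz on top of Gpr161 lowered some Hedgehog target genes and floor plate genes and raised some genes of the intermediate and dorsal neural tube, of neural crest and of the dermomyotome. Of 21284 genes, 111 were called between Tail DKO and Tail Gpr161 KO (0.522%), 32 of them higher in Tail DKO (0.15%) and 79 lower (0.371%). At an unadjusted p under 0.05 there were 2597 genes, and DESeq2 called 718. Risen genes moved by a median of 3.09 on the log2 scale and fallen genes by a median size of 1.35, beside a median of 0.03 over all genes. The count fell to 17 without Tail DKO 1, 13 without Tail DKO 2, 25 without Tail Gpr161 KO 1, 19 without Tail Gpr161 KO 2 and 47 with sex as a term. Of 42 named genes that were called, 6 stayed called in every alternative that was run, namely Foxa2, Gli1, Msx3, Pax3, Pax7 and Sox10.

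Most Hedgehog target genes had lower fitted levels in Tail DKO. Of 16 tested members, 13 had a negative and 3 a positive difference. By the test 6 fell and 0 rose, with a list median of -1.29 on the log2 scale. Against Tail WT the same list had a median of -0.11 in Tail DKO and 1.33 in Tail Gpr161 KO. Gli1, the transcription factor whose own gene is a direct Hedgehog target, had 40.0 and 35.4 CPM in Tail DKO, against 114 and 130 CPM in Tail Gpr161 KO. It was 3.24-fold lower in Tail DKO (log2 -1.69, SE 0.19, adjusted p = 0.00127), and its levels were next to those of Tail WT, 38.2 and 45.9 CPM. Ptch1, the Hedgehog receptor that is induced by the pathway it inhibits, had 184 and 136 CPM in Tail DKO, against 544.5 and 532 CPM in Tail Gpr161 KO (log2 -1.75, SE 0.26, adjusted p = 0.0146). Both Tail DKO libraries lay beside the Tail WT libraries, at 138 and 153 CPM.

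Forkhead genes that Hedgehog signalling induces in mesenchyme made up the other called targets. Foxf2 had 9.05 and 9.95 CPM in Tail DKO, against 43.9 and 60.5 CPM in Tail Gpr161 KO (log2 -2.46, adjusted p = 0.0076). Foxl1 had 3.58 and 1.96 CPM in Tail DKO, against 10.45 and 17.35 CPM in Tail Gpr161 KO (log2 -2.33, adjusted p = 0.0218). Foxd1 had 30.2 and 16.5 CPM in Tail DKO, against 104 and 93.9 CPM in Tail Gpr161 KO (log2 -2.08, adjusted p = 0.0333). For these 3 genes the Tail Gpr161 KO libraries were the high ones, and Tail DKO stood near Tail WT. Hhip, a membrane protein that binds Hedgehog ligands and is itself a target, had 28.7 and 24.7 CPM in Tail DKO, against 48.3 and 74.4 CPM in Tail Gpr161 KO, and missed the threshold (log2 -1.20, 95% interval -1.91 to -0.49, adjusted p = 0.135). It lay between the other groups, since Tail WT had 14.9 and 15.05 CPM. Foxf1 had 26.8 and 25.0 CPM in Tail DKO, against 92.1 and 96.9 CPM in Tail Gpr161 KO, and also missed it (log2 -1.87, SE 0.49, adjusted p = 0.132).

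Upstream of the targets, most of the pathway did not pass the test. Of 28 ligands, co-receptors and transducers, 1 rose and 1 fell in edgeR, while 9 were at an unadjusted p under 0.05 and DESeq2 called 5. Their differences were positive in 9 and negative in 19, with a median of -0.14. Shh, the ligand, had 5.635 and 7.99 CPM in Tail DKO, against 34.0 and 37.2 CPM in Tail Gpr161 KO (log2 -2.38, SE 0.33, adjusted p = 0.0076). Its Tail DKO levels were below those of Tail WT, 13.45 and 19.35 CPM, with a log2 difference of -1.27 that missed the threshold (adjusted p = 0.3535). Gas1, a co-receptor that Hedgehog signalling represses, had 219 and 224 CPM in Tail DKO, against 120 and 112 CPM in Tail Gpr161 KO (log2 0.94, SE 0.16, adjusted p = 0.0259). The co-receptor Cdon moved the same way without passing, at 71.6 and 64.9 CPM in Tail DKO and 44.7 and 31.5 CPM in Tail Gpr161 KO (log2 0.84, adjusted p = 0.0556). Boc, the remaining co-receptor, had a log2 difference of 0.61 (adjusted p = 0.278). The transcription factors Gli2 and Gli3 had log2 differences of -0.11 (95% interval -0.41 to 0.19) and 0.28 (-0.05 to 0.61), so changes of the size seen in Gli1 lay outside both intervals.

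Promoter windows of the called genes were searched for the Gli-binding site, since Gli1, Ptch1 and Foxa2 moved together. RefSeq windows of the GRCm38.p6 build, 250 bases before to 50 after a transcription start, were found for 56 of the 79 lower and 21 of the 32 higher genes. The site GACCACCCA, read on both strands, was in 0 lower and 0 higher genes and in 0.289% of all 27025 genes with a window. The looser GACCNCCCA, which includes it, was in 2 of 56 lower genes (Foxa2 and Fhdc1), 1 of 21 higher genes (Car11) and 1.14% of all genes with a window. A pair of these windows is shown, the one of Foxa2 that holds a match, on the minus strand of chr2:148045415-148045714, and the window of Ptch1, on the minus strand of chr13:63565686-63565985, as a called target without one. Capitals mark the match, which reads TGGGAGGTC on the strand shown and begins at position -66 from the start.
Foxa2: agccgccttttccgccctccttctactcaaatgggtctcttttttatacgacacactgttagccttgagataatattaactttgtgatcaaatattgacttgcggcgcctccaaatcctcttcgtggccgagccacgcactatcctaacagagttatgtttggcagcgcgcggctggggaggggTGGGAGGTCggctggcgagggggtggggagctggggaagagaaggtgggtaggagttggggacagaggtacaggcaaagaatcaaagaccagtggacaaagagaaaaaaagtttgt
Ptch1: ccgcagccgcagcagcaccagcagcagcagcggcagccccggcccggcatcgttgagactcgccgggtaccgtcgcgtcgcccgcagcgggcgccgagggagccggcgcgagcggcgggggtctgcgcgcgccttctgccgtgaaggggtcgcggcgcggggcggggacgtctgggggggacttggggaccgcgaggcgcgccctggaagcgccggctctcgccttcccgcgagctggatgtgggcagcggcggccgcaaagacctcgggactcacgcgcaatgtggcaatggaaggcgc
A match is a description of letters, and sites outside these windows were not searched.

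**Figure D1:**
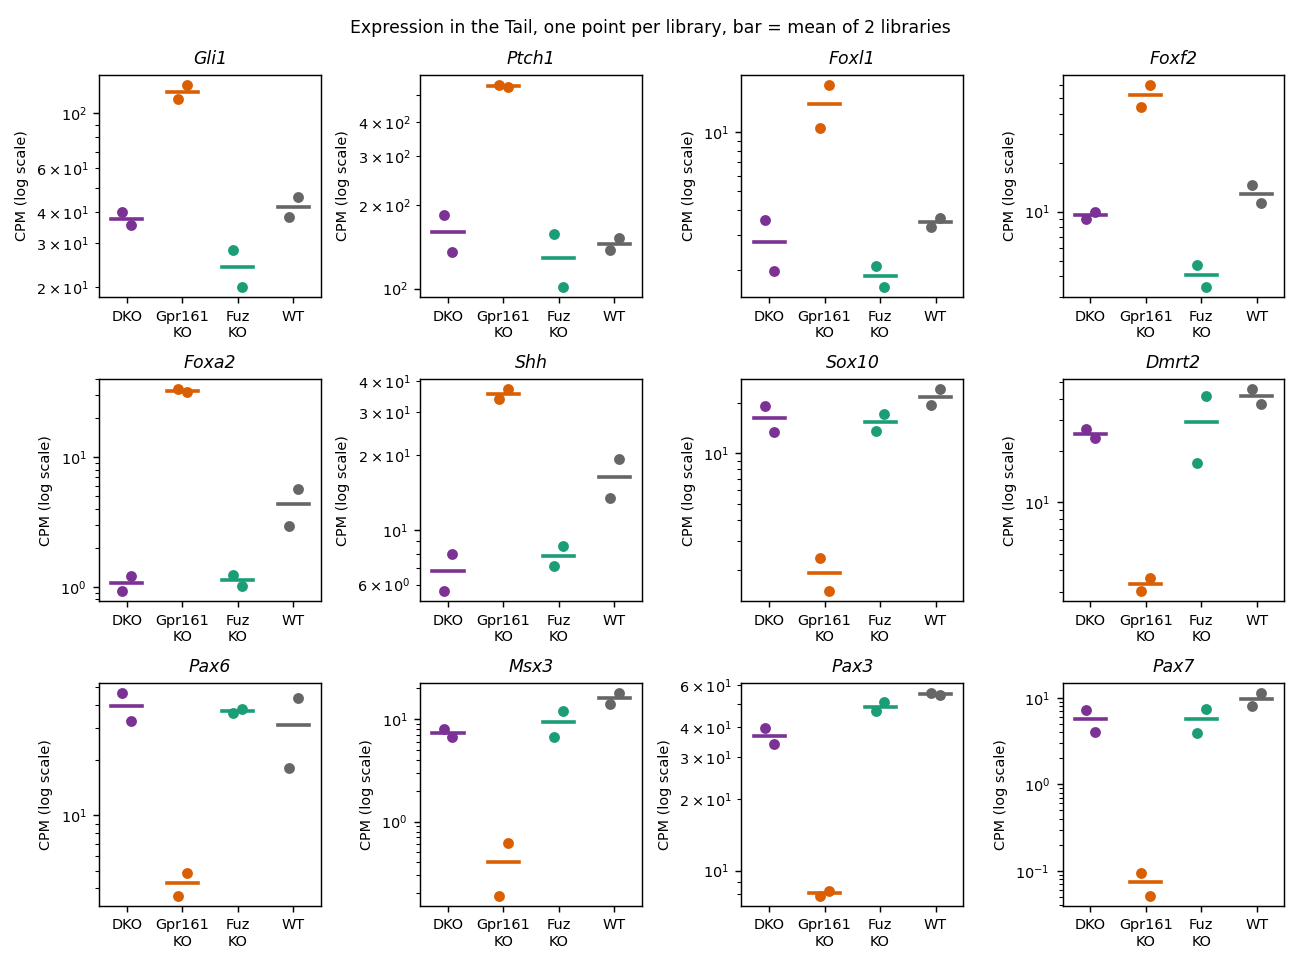
CPM (log axis) of 12 genes in the 4 Tail groups, 1 point per library and a bar at the mean of 2 libraries, with Tail DKO left of Tail Gpr161 KO, Tail Fuz KO and Tail WT. In the first 6 panels (Gli1 to Shh) both Tail Gpr161 KO points lie above both Tail DKO points, as for Gli1 at 114 and 130 CPM against 40.0 and 35.4 CPM, and in the last 6 (Sox10 to Pax7) they lie below.

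Floor plate and notochord genes were lower in Tail DKO in all 14 tested members, of which 4 fell, with a median of -1.77 on the log2 scale. Foxa2, the transcription factor that specifies floor plate and notochord, had 0.924 and 1.21 CPM in Tail DKO, against 33.65 and 31.6 CPM in Tail Gpr161 KO. This 30.4-fold difference (log2 -4.92, SE 0.42, adjusted p = 1.06e-04) left Tail DKO below Tail WT as well, where Foxa2 had 2.97 and 5.67 CPM, though the log2 difference of -2.01 between Tail DKO and Tail WT was not called (adjusted p = 0.189). Tail Fuz KO libraries had 1.24 and 1.01 CPM. Ferd3l, a basic helix-loop-helix factor expressed in the floor plate, had 0.0693 and 0.137 CPM in Tail DKO, against 1.94 and 3.125 CPM in Tail Gpr161 KO (log2 -4.55, adjusted p = 0.00394). Slit1, a repellent for commissural axons, had 13.7 and 6.501 CPM in Tail DKO, against 71.5 and 72.9 CPM in Tail Gpr161 KO (log2 -2.84, adjusted p = 0.0296). In whole tissue, fewer cells of a type and less RNA per cell cannot be told apart.

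Of 26 genes of the ventral neural tube, 0 passed the test in edgeR, 8 were at an unadjusted p under 0.05 and DESeq2 called 3, and the members went both ways, with 15 positive differences and a median of 0.23. Nkx2-9, of the progenitors next to the floor plate, had 0.323 and 0.313 CPM in Tail DKO, against 14.4 and 20.4 CPM in Tail Gpr161 KO, and just missed the threshold (log2 -5.76, SE 1.11, adjusted p = 0.0551). Nkx2-2, of the same domain, had 0.277 and 0.0979 CPM in Tail DKO, against 6.49 and 4.80 CPM in Tail Gpr161 KO (log2 -4.92, adjusted p = 0.0692). Nkx6-1, of a broader ventral domain, had 13.6 and 4.01 CPM in Tail DKO, against 55.2 and 68.8 CPM in Tail Gpr161 KO (log2 -2.82, adjusted p = 0.16). Olig2, of motor neuron progenitors, had 14.6 and 5.46 CPM in Tail DKO and 14.9 and 18.5 CPM in Tail Gpr161 KO (log2 -0.73, 95% interval -2.63 to 1.17, adjusted p = 0.824), and Tail WT libraries differed as widely, at 2.01 and 18.6 CPM. Chat, the enzyme of acetylcholine synthesis in motor neurons, was on the higher side, with 0.693 and 0.431 CPM in Tail DKO and no counts in Tail Gpr161 KO (adjusted p = 0.285).

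Genes of the intermediate neural tube rose in 5 of 13 tested members and fell in 0. The list median was 2.96 on the log2 scale, or 2.00 with members that had no counts in a group set to a bound of 3 counts over the group. Pax6, a transcription factor of intermediate and dorsal progenitors, had 46.5 and 32.9 CPM in Tail DKO, against 3.65 and 4.855 CPM in Tail Gpr161 KO, a 9.34-fold rise (log2 3.22, SE 0.40, adjusted p = 0.00605). Tail WT libraries had 18.1 and 43.9 CPM. Dbx1, a homeobox gene of interneuron progenitors at the middle of the neural tube, had 9.93 and 4.76 CPM in Tail DKO, against 0.0948 and 0 CPM in Tail Gpr161 KO, or 673 reads against 4 (adjusted p = 0.048). Its paralogue Dbx2 had 1.73 and 1.45 CPM in Tail DKO, against 0 and 0.0517 CPM in Tail Gpr161 KO, a ratio of 63.9 with a counting interval of 17.4 to 532 (adjusted p = 0.0218). Prdm13, of inhibitory interneuron precursors, had 4.20 and 1.47 CPM in Tail DKO, against 0.0474 and 0.0517 CPM in Tail Gpr161 KO (adjusted p = 0.0133). These genes were close to undetected in both Tail Gpr161 KO libraries and present in both Tail DKO libraries. Prdm12, of V1 interneuron and sensory precursors, had 5.43 and 2.21 CPM in Tail DKO, against 0.687 and 0.284 CPM in Tail Gpr161 KO (log2 2.96, adjusted p = 0.0458).

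Dorsal neural tube and roof plate genes rose in 4 of 30 tested members and fell in 0, with a median of 1.29 on the log2 scale, or 1.25 with members without counts at their bound. Pax3, a paired-box factor of dorsal progenitors, neural crest and dermomyotome, had 39.65 and 34.0 CPM in Tail DKO, against 7.87 and 8.24 CPM in Tail Gpr161 KO (log2 2.19, SE 0.16, adjusted p = 5.35e-05). Pax7, its paralogue, had 7.30 and 3.995 CPM in Tail DKO, against 0.0948 and 0.0517 CPM in Tail Gpr161 KO (log2 6.20, SE 0.49, adjusted p = 5.47e-05). Msx3, a homeobox gene of the dorsal neural tube, had 8.06 and 6.775 CPM in Tail DKO, against 0.1896 and 0.620 CPM in Tail Gpr161 KO (log2 4.20, SE 0.46, adjusted p = 0.00127). All 3 remained below the Tail WT libraries in both Tail DKO libraries, for Pax3 at 55.5 and 54.7 CPM in Tail WT. Their log2 differences from Tail WT were -0.58, -0.78 and -1.12 in the order named, and none was called. Atoh1, of the dorsalmost interneuron progenitors, had 0.716 and 0.666 CPM in Tail DKO and no counts in Tail Gpr161 KO. That was at least 18.6-fold higher in Tail DKO, taking 3 counts over the Tail Gpr161 KO group as the floor (adjusted p = 0.0227), a bound that covers counting error only, and Tail WT had 4.12 and 2.196 CPM. Msx1, of the roof plate and limb, did not pass (log2 0.67, adjusted p = 0.275). Of 15 general neural progenitor genes 0 were called by edgeR, with 6 at an unadjusted p under 0.05 and 3 called by DESeq2, a median of -0.27 and 4 positive differences, and they summed to 1358 and 966 CPM in Tail DKO and 1327 and 1349 CPM in Tail Gpr161 KO.

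Neural crest and glial genes rose in 3 of 19 tested members and fell in 0, beside a median of 0.21, with 12 positive and 7 negative differences. Sox10, which marks migrating crest and its glial derivatives, had 19.3 and 13.4 CPM in Tail DKO, against 2.37 and 1.498 CPM in Tail Gpr161 KO, an 8.41-fold rise (log2 3.07, SE 0.33, adjusted p = 0.00127). Cdh19, a cadherin of Schwann cell precursors, had 0.670 and 1.04 CPM in Tail DKO, against 0.0474 and 0.0517 CPM in Tail Gpr161 KO (adjusted p = 0.0218). Against Tail WT, Tail DKO had fitted log2 differences of -0.42 for Sox10 and -0.29 for Cdh19, and neither was called. The Tail DKO and Tail WT libraries overlapped for Cdh19, while both Tail DKO libraries were just below both Tail WT libraries for Sox10.

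In the somite lists, dermomyotome and muscle genes rose in 2 of 22 members and sclerotome and cartilage genes fell in 4 of 21. Dmrt2, a regulator of dermomyotome, had 26.7 and 23.5 CPM in Tail DKO, against 3.01 and 3.615 CPM in Tail Gpr161 KO (log2 2.92, SE 0.41, adjusted p = 0.00812). Cdh15, the cadherin of myogenic cells, had 12.1 and 7.66 CPM in Tail DKO, against 0.4265 and 0.981 CPM in Tail Gpr161 KO (log2 3.81, adjusted p = 0.0287). Both genes were low in both Tail Gpr161 KO libraries, and the dermomyotome list had a median of 1.63. On the sclerotome side, Matn4, a cartilage matrix protein, had 0.531 and 0.157 CPM in Tail DKO, against 5.64 and 4.62 CPM in Tail Gpr161 KO (log2 -3.91, adjusted p = 0.00915). Foxc1, of paraxial mesoderm, and Col2a1, the cartilage collagen, fell by 0.98 and 1.01 on the log2 scale, with adjusted p-values of 0.0379 and 0.0385. The sclerotome list had a median of -0.54.

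Posterior genes are given beside these lists. Of 38 Hox genes 37 had a negative log2 difference, with a median of -0.55, and 0 were called by edgeR (8 at an unadjusted p under 0.05, 5 called by DESeq2), and the 22 genes of tail bud and segmentation clock had a median of -1.28 with 1 called. That gene was Evx1, a homeobox gene of the tail bud and of ventral interneurons, with 5.80 and 5.48 CPM in Tail DKO, against 32.5 and 23.2 CPM in Tail Gpr161 KO (log2 -2.31, adjusted p = 0.0333). Tail WT had 6.92 and 8.44 CPM. The tail bud list summed to 229 and 185.5 CPM in Tail DKO and 462 and 306.5 CPM in Tail Gpr161 KO, so Tail Gpr161 KO 1 was the high library. How far along the axis the Tails reached is not recorded, and its part in the results was not tested.

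Among the other lists, Wnt5a, a ligand of non-canonical Wnt signalling counted with gut and splanchnic mesenchyme, had 73.25 and 67.85 CPM in Tail DKO, against 159.5 and 132.5 CPM in Tail Gpr161 KO (log2 -1.05, SE 0.16, adjusted p = 0.0146). Celsr1, an atypical cadherin of the core planar cell polarity machinery, had 42.5 and 32.1 CPM in Tail DKO, against 85.1 and 81.6 CPM in Tail Gpr161 KO (log2 -1.16, SE 0.15, adjusted p = 0.00445). Tail DKO was also called lower than Tail WT, at 64.55 and 82.65 CPM (log2 -0.98, adjusted p = 0.0418), while Tail Gpr161 KO was not called against Tail WT (log2 0.18, adjusted p = 0.966). Celsr1 was the 1 called member of 21 planar cell polarity genes, whose median was -0.46. The 30 genes of CPLANE and intraflagellar transport held 0 calls in edgeR, 1 at an unadjusted p under 0.05 and 1 in DESeq2, and log2 differences from -0.45 to 0.38, with a median of 0.08. Crabp2, a retinoic acid binding protein, had 230 and 306 CPM in Tail DKO, against 134 and 147.5 CPM in Tail Gpr161 KO (log2 0.93, adjusted p = 0.0432). edgeR called no gene in the lists of hindlimb bud (20 tested), Wnt feedback (19), FGF response (19), BMP and TGF-beta (21), neuronal differentiation (24) or proliferation (20), whose medians lay between -0.18 and 0.39. At an unadjusted p under 0.05 these lists held 2, 5, 7, 2, 1 and 2 genes in that order, and DESeq2 called 1, 2, 3, 0, 0 and 0.

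**Figure D2:**
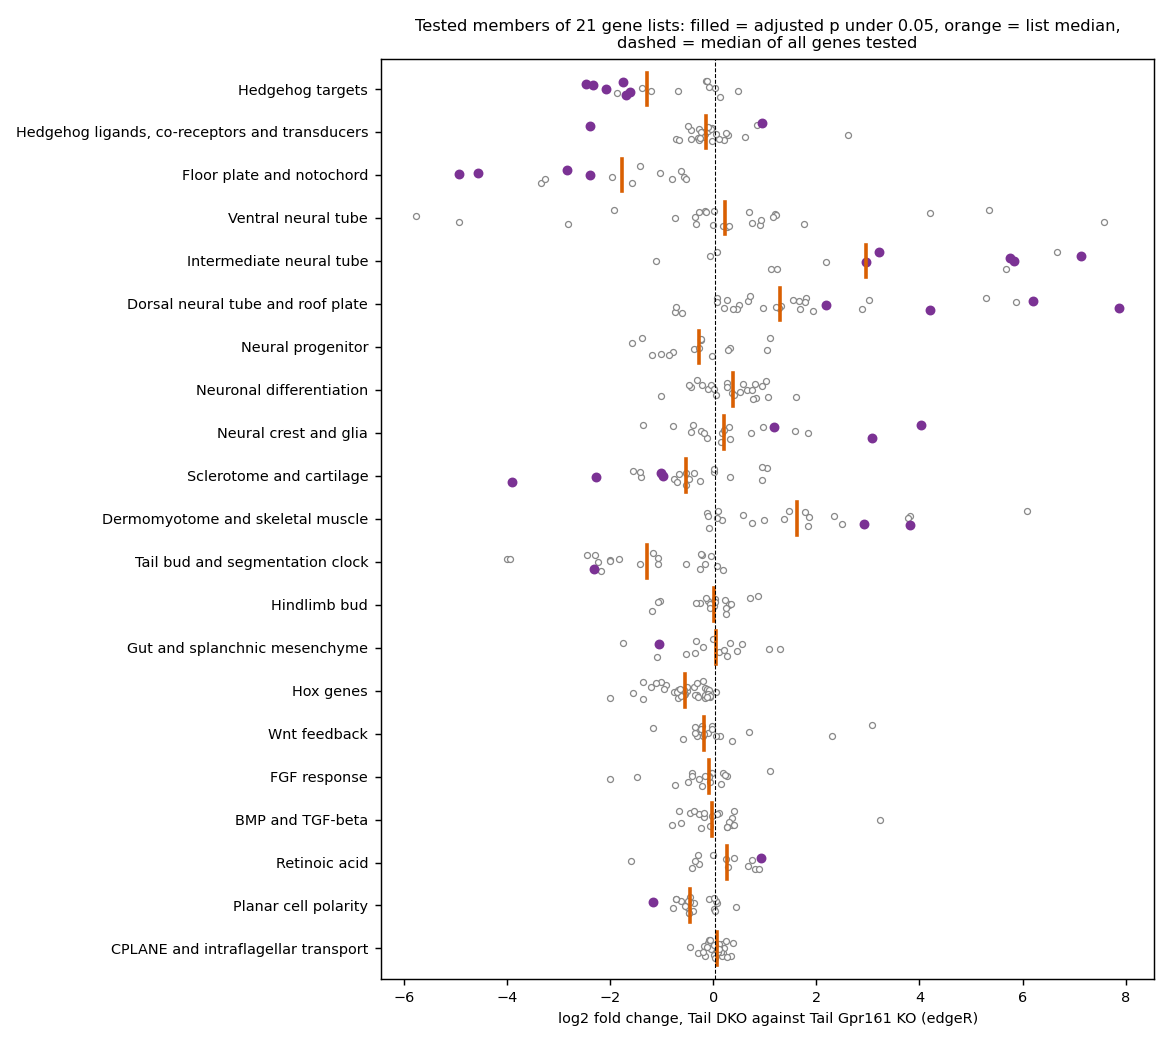
Log2 fold change of Tail DKO against Tail Gpr161 KO for each tested member of 21 gene lists (points, filled where the adjusted p was under 0.05), with the list median as an orange bar and the median of all genes as a dashed line at 0.03. Called points lie left of the line for Hedgehog targets (median -1.29) and floor plate (median -1.77) and right of it for the intermediate neural tube (median 2.96).

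Called genes outside the lists numbered 78 of 111, of which 62 were lower in Tail DKO. Semaphorin Sema3a, a repellent axon guidance cue, had 90.25 and 91.9 CPM in Tail DKO, against 35.45 and 40.4 CPM in Tail Gpr161 KO (log2 1.26, adjusted p = 0.00605). Plch1, a phospholipase C, had 77.4 and 74.45 CPM in Tail DKO, against 35.1 and 29.5 CPM in Tail Gpr161 KO (log2 1.23, adjusted p = 0.00702). Car11, a carbonic anhydrase-related protein, and Cp, the copper-carrying ferroxidase ceruloplasmin, rose by 2.11 and 2.42 on the log2 scale. These 4 genes had fitted log2 differences between Tail DKO and Tail WT from -0.13 to 0.19, and none was called there. Sec1, a fucosyltransferase-related gene named after its values were seen, had 5.22 and 3.955 CPM in Tail DKO, against 0.0474 and 0 CPM in Tail Gpr161 KO, or 428 reads against 2. Sec1 and Car11 lie on chromosome 7, as Fuz does, though outside the 100 tested genes nearest to it. Whether their place on this chromosome had a part in these rises was not tested. Among the largest falls, Saa2, an acute-phase protein, had 0.3695 and 0.940 CPM in Tail DKO, against 6.78 and 9.425 CPM in Tail Gpr161 KO. Trh, the thyrotropin-releasing hormone precursor, had 0.462 and 0.313 CPM in Tail DKO, against 5.12 and 2.69 CPM in Tail Gpr161 KO. Fhdc1, a formin-like protein, had 4.73 and 5.52 CPM in Tail DKO, against 20.2 and 22.1 CPM in Tail Gpr161 KO (log2 -2.04, adjusted p = 0.0076).

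A further 31 of the 79 fallen genes moved by less than 1 on the log2 scale, and widely expressed regulators were among them. Chd4, a nucleosome remodeller, had 633 and 600 CPM in Tail DKO, against 923 and 900 CPM in Tail Gpr161 KO (log2 -0.56, SE 0.10, adjusted p = 0.0227). Arid1a, a subunit of the SWI/SNF remodelling complex, had 242 and 225 CPM in Tail DKO, against 349 and 363 CPM in Tail Gpr161 KO (log2 -0.61, adjusted p = 0.0218). Fbn2, a microfibril protein that moved further, had 296 and 261 CPM in Tail DKO, against 538 and 607 CPM in Tail Gpr161 KO (log2 -1.04, SE 0.12, adjusted p = 0.00133). These genes were named after their values were seen. The 31 genes had long transcripts, with a median of 6697 bases for the longest annotated transcript, beside 2858 bases over all genes tested and 3120 bases over the 32 risen genes. Over all genes, the median log2 difference between Tail DKO and Tail Gpr161 KO was 0.21 in the fifth of genes with the shortest transcripts and -0.09 in the fifth with the longest, and it was 0.15 at the lowest and -0.08 at the highest GC content. The part of length and GC content in these calls was not tested.

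Most of the genes changed by the loss of Gpr161 alone, 39 of 65, were called in the opposite direction when Fuz was lost too. Between Tail Gpr161 KO and Tail WT 65 genes were called (0.305%), 17 higher (0.0799%) and 48 lower (0.226%) in Tail Gpr161 KO. Of the 17 higher genes, 14 were called lower in Tail DKO than in Tail Gpr161 KO, and of the 48 lower genes, 25 were called higher. The comparisons share the Tail Gpr161 KO libraries, so an opposite direction is favoured by what they share, and these counts are a description. Each alternative fit chose the Gpr161 KO changes anew, so its count is not out of 65. With DESeq2 it was 168 of 319. The 39 became 6 to 22 on leaving out a library: 11 without Tail DKO 1, 10 without Tail DKO 2, 10 without Tail Gpr161 KO 1, 6 without Tail Gpr161 KO 2, 22 without Tail WT 1 and 19 without Tail WT 2. Against Tail WT, the 17 genes had a median log2 difference of -0.16 in Tail DKO and 1.82 in Tail Gpr161 KO, and the 48 genes had -0.61 in Tail DKO and -2.68 in Tail Gpr161 KO. Between Tail DKO and Tail WT, 0 of the 17 were called by edgeR, 6 were at an unadjusted p under 0.05 and 1 was called by DESeq2. Of the 48, 43 were still on the lower side of Tail WT in Tail DKO, and 3 were called there, among them Gpr161 itself and the pseudogene Rpl34-ps1.

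Of the 17 higher genes, 3 were not called lower in Tail DKO than in Tail Gpr161 KO. Besides Hhip these were Has2, a hyaluronan synthase, and Vangl1, of the core planar cell polarity genes, which were named after their values were seen. Has2 had log2 differences from Tail WT of 0.77 in Tail DKO and 1.63 in Tail Gpr161 KO. Vangl1 had 0.18 in Tail DKO and 0.95 in Tail Gpr161 KO. On the lower side 23 genes were not called higher in Tail DKO, and 22 of them had log2 differences in that direction. A p that misses the threshold does not show that a gene stayed at its Gpr161 KO level.

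**Figure D3:**
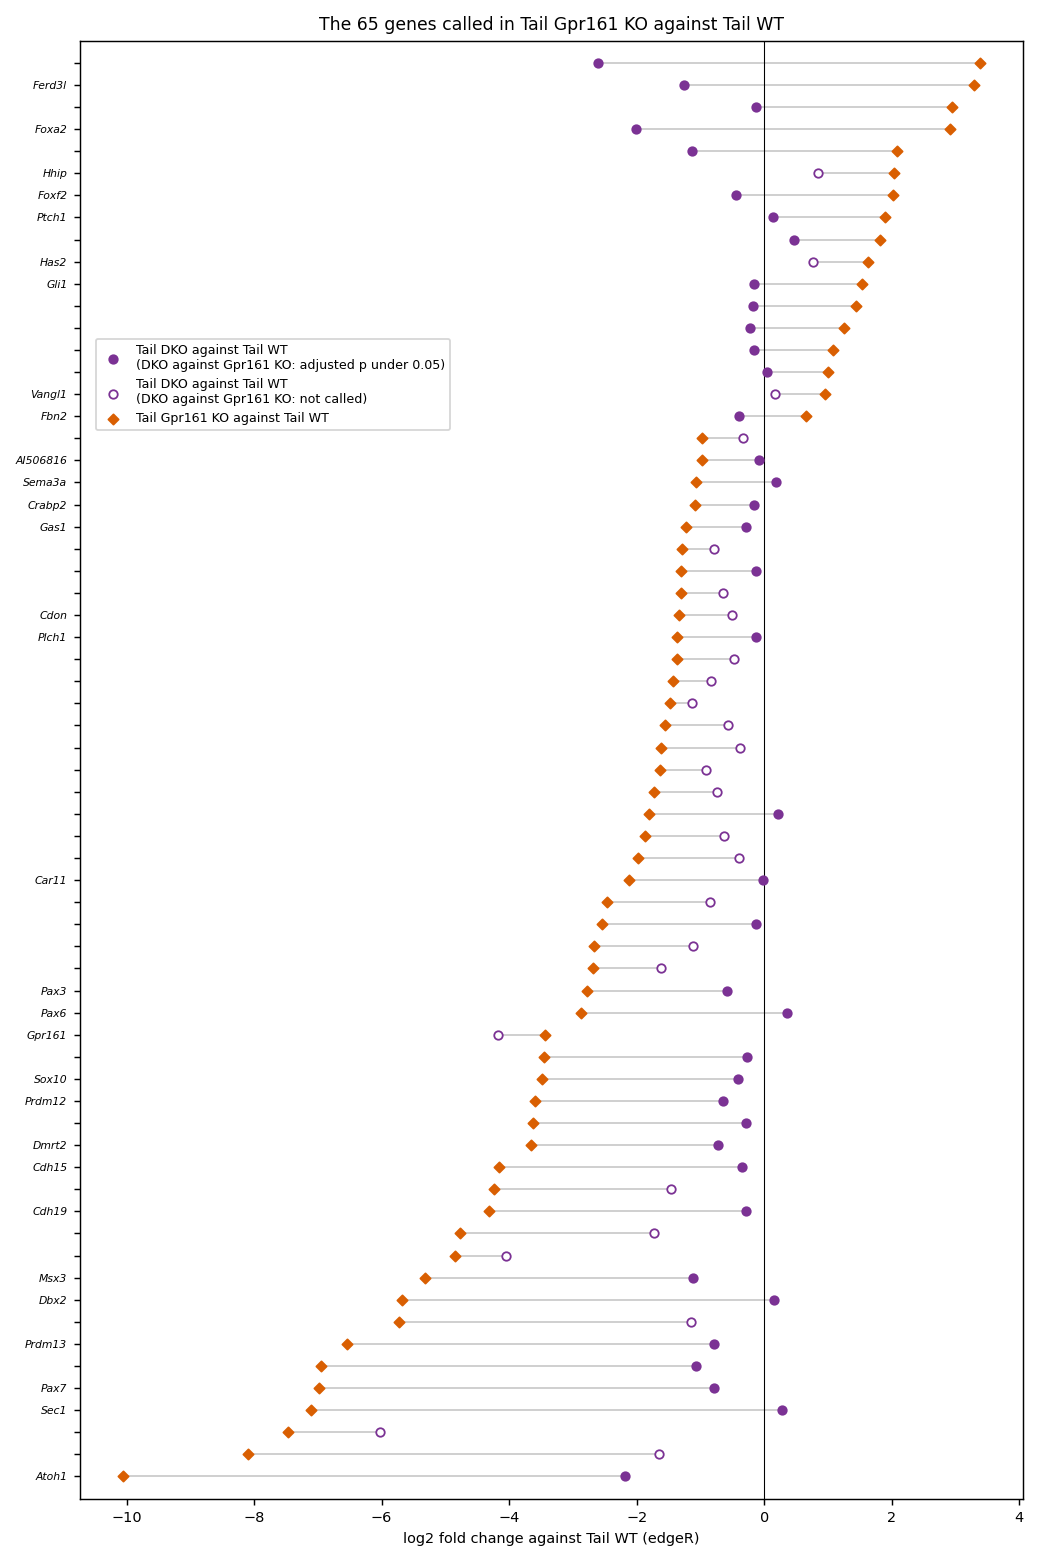
Log2 fold change against Tail WT of the 65 genes called in Tail Gpr161 KO (diamonds), beside that of Tail DKO (circles, filled where Tail DKO and Tail Gpr161 KO differed at an adjusted p under 0.05). Both series share the Tail WT libraries, names are given for some of the genes described in the text, and most circles lie nearer to 0 than their diamonds, with medians of -0.16 and 1.82 for the 17 higher genes and -0.61 and -2.68 for the 48 lower genes.

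Read from the other side, most of the risen and a smaller part of the fallen genes of Tail DKO had been called in the Gpr161 KO. Of the 32 higher genes, 25 had been called lower in Tail Gpr161 KO against Tail WT, or 78.1%, beside 0.226% of all genes. Of the 79 lower genes, 14 had been called higher, or 17.7%, beside 0.0799% of all genes. The remaining 65 lower genes were not called in that comparison. Here too the Tail Gpr161 KO libraries are shared and the fallen genes moved less, so these counts are a description. Tail DKO and Tail WT themselves differed in 9 called genes (0.0423%), 7 lower (0.0329%) and 2 higher (0.0094%) in Tail DKO, with 1530 genes at an unadjusted p under 0.05 and 144 called by DESeq2.

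Of those 9 genes, 6 carried a pseudogene's name or biotype, and their reads can be shared with near-identical copies, so their values are uncertain. Atp6v0c-ps2 on chromosome 6 had 0.208 and 0.333 CPM in Tail DKO, 19.8 and 8.78 CPM in Tail Gpr161 KO and 9.81 and 9.54 CPM in Tail WT. Gm9825, also on chromosome 6, had 0.854 and 0.979 CPM in Tail DKO, against 37.0 and 23.4 CPM in Tail Gpr161 KO. Gm11942 on chromosome 4 went the other way, with 12.35 and 11.53 CPM in Tail DKO, 0.379 and 0.310 CPM in Tail Gpr161 KO and 7.325 and 14.7 CPM in Tail Fuz KO. The others were Rpl34-ps1, H2-Bl and Ftl1-ps1. These 6 were named after their values were seen, because most of the 9 are of this kind. Gpr161 and Celsr1 were among the other 3. Head libraries of the same genotypes had similar levels of the 6 pseudogenes. Gm9825 had 0.848 and 1.07 CPM in Head DKO and 40.7 and 22.5 CPM in Head Gpr161 KO. Gm11942 had 9.94 and 8.78 CPM in Head DKO and 0.271 and 0.419 CPM in Head Gpr161 KO. These values went with the genotype in both regions, and their cause was not tested.

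Genes chosen by a contrast between Head libraries were then read in the Tail. The contrast was part of the model of all 16 libraries, so Tail libraries entered its filter and its estimate of the spread. Head Gpr161 KO and Head WT differed in 429 called genes (2.02%), 321 higher (1.51%) and 108 lower (0.507%) in Head Gpr161 KO. The 321 included 16 of 20 cardiomyocyte markers, and the part of such genes in the counts that follow was not tested. In the Tail, 28 of the 321 were called lower in Tail DKO than in Tail Gpr161 KO, or 8.72%, beside 0.371% of all genes, and 1 was called higher. Of the 108, 10 were called higher in Tail DKO, or 9.26%, beside 0.15% of all genes, and 1 was called lower. The medians over the 321 and the 108 genes were -0.33 and 0.45 on the log2 scale, against 0.03 over all genes. Of the 321 genes 251 had a negative and of the 108 genes 78 had a positive difference. The count of 38 became 6 to 17 when single libraries were left out, with 9 without Tail DKO 1, 8 without Tail DKO 2, 14 without Tail Gpr161 KO 1, 8 without Tail Gpr161 KO 2, 16 without Head Gpr161 KO 1, 17 without Head Gpr161 KO 2, 8 without Head WT 1 and 6 without Head WT 2. The Head genes were chosen anew in each of these fits, so the counts are not out of 429. Head and Tail libraries may come from the same embryos.

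The effect of losing Fuz differed without and with Gpr161 for 9 called genes (0.0423%). The difference was tested as Tail DKO minus Tail Gpr161 KO less Tail Fuz KO minus Tail WT. Pax3, Pax7, Msx3, Sox10, Atoh1, AI506816 and Sec1 had a positive difference (0.0329% of all genes). The pseudogenes Atp6v0c-ps2 and Gm9825 had a negative one (0.0094%), and their values are uncertain for the reason given above. For Pax3, losing Fuz gave a log2 change of 2.19 without Gpr161 and -0.18 with it, and the difference was 2.37 (SE 0.22, adjusted p = 6.60e-04). For Pax7 the difference was 6.96 (SE 0.60, adjusted p = 3.53e-04), for Msx3 4.97 (SE 0.58, adjusted p = 0.00497) and for Sox10 3.58 (SE 0.44, adjusted p = 0.00708). AI506816, a gene model with no role known here, stood apart in that losing Fuz moved it both ways, by 0.90 without Gpr161 and -0.98 with it, of which the second did not pass its own test (adjusted p = 0.241). Gli1, Ptch1 and Foxa2 did not pass this test: for Gli1 the log2 change was -1.69 without Gpr161 and -0.80 with it, and the difference of -0.89 (SE 0.26) had an adjusted p of 0.523. For Ptch1 and Foxa2 the differences were -1.58 (adjusted p = 0.321) and -2.98 (adjusted p = 0.109). DESeq2 called 124 genes in this test, and the count was 105 without Tail Fuz KO 2, which left Tail Fuz KO 1 as the lone library of its group. Between Tail Fuz KO and Tail WT, 2 genes were called (0.0094%), the pseudogenes Gm11942 and Gm6969, with 1109 genes at an unadjusted p under 0.05 and 24 called by DESeq2. The 2 Tail Fuz KO libraries correlated at r of 0.966, and Tail Fuz KO 1 stood apart. The hypoxia and glycolysis list summed to 37120 and 14770 CPM in Tail Fuz KO, and the immediate early and stress list to 1170 and 213 CPM. The part of this library in the few calls and in the test of differences was not tested.

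In the Head, 886 genes were called between DKO and Gpr161 KO (4.16%), 219 higher (1.03%) and 667 lower (3.13%) in Head DKO. The Tail and the Head differed in the effect of losing Fuz without Gpr161 for 57 called genes (0.268%), 39 with a higher (0.183%) and 18 with a lower value in the Tail (0.0846%). With Head and Tail libraries of 1 genotype and number as a block the count was 503, sharing 53 of the 57. It was 11 without Tail DKO 1, 12 without Tail DKO 2, 18 without Tail Gpr161 KO 1, 18 without Tail Gpr161 KO 2, 20 without Head DKO 1, 13 without Head DKO 2 and 36 without Head Gpr161 KO 1. Sox10 changed by 3.07 on the log2 scale in the Tail and by -0.44 in the Head (difference 3.51, SE 0.44, adjusted p = 0.00771, and 0.0532 with the block). Head levels of Sox10 were 18.7 and 22.8 CPM in Head DKO and 25.9 and 30.4 CPM in Head Gpr161 KO, so Head Gpr161 KO was the higher group there. Dmrt2 changed by 2.92 in the Tail and -0.80 in the Head (difference 3.72, adjusted p = 0.0218), and Sema3a by 1.26 and -0.26 (difference 1.52, adjusted p = 0.0218). Pax7 rose in both regions, by 6.20 in the Tail and 2.80 in the Head. Foxl1 fell in both, by 2.33 in the Tail and 5.92 in the Head. Evx1 and Trh moved in opposite directions, at -2.31 in the Tail and 2.90 in the Head for Evx1 and at -3.33 and 2.04 for Trh.

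Among called genes with a mean of at least 5 CPM in their highest group, the 5 largest positive differences were those of Myl4, Myh6, Alpk2, Myl7 and Asb2, genes of heart and other muscle, and their high levels were in Head Gpr161 KO. Myh6, the atrial myosin heavy chain, had 0.393 and 0.450 CPM in Tail DKO and 0.237 and 0.232 CPM in Tail Gpr161 KO, against 1.13 and 0.686 CPM in Head DKO and 326 and 55.9 CPM in Head Gpr161 KO. The 20 cardiomyocyte markers summed to 79.9 and 85.2 CPM in Tail DKO, 63.4 and 44.1 CPM in Tail Gpr161 KO, 31.45 and 10.2 CPM in Head DKO and 2168 and 476 CPM in Head Gpr161 KO. Their part in the other differences was not tested. With haemoglobin, mitochondrial and cardiomyocyte genes removed, 51 genes were called. Gli1 and Ptch1 did not pass this test. Gli1 changed by -1.69 in the Tail and -1.91 in the Head, with a difference of 0.21 (SE 0.26). For Ptch1 the values were -1.75 in the Tail and -1.60 in the Head, with a difference of -0.15 (SE 0.36).

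**Figure D4:**
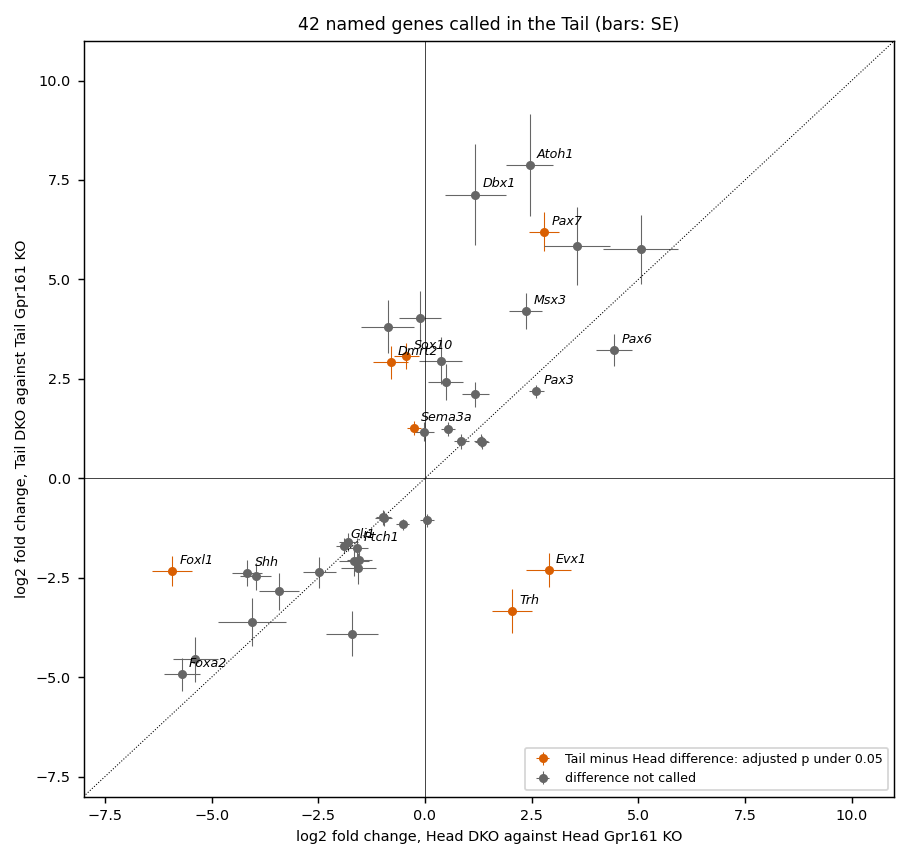
Log2 fold change of DKO against Gpr161 KO in the Tail (vertical axis) and the Head (horizontal axis) for the 42 named genes called in the Tail, with SE as bars and equal change as a dotted line. Orange points passed the test of the difference between regions, as for Sox10 at 3.07 in the Tail and -0.44 in the Head, while Gli1 and Ptch1 lie near the dotted line.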

How the data were processed

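RNA was extracted from Head or Tail parts with a Trizol-based kit and DNase and sequenced from NEBNext Ultra libraries after poly-A selection, per the labels' protocols. Each library came with a deposited table of counts, whole numbers for every Ensembl identifier, with no normalization in the values. Per the submitters' processing notes the tools included Trimmomatic, STAR 2.7.1a, featureCounts 1.6.0 and HTSeq, and the build was GRCm39. Which counter was used, and with which strand option, is not given in the sources used here, so a gene and an overlapping antisense gene cannot be told apart. Of 54838 identifiers, 54809 were matched to a symbol through an older annotation, used only for names, biotypes, chromosomes, gene order and transcript length and GC content.

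All 16 libraries were fitted in 1 model with a coefficient per group in edgeR 4.0.16 (R 4.3.3; filterByExpr, TMM, robust quasi-likelihood F-test), which left 21284 genes, 8 residual df and a common BCV of 0.257. SE and intervals come from the F statistic. A rank or permutation test of 2 against 2 libraries cannot go below a p of 0.333 and was not used. The procedure was also run on simulated counts with known changes, drawn independently for each library. That simulation held no sex differences, shared embryos or outlying library, so it does not vouch for the calls made here. The members and the 36 gene lists (695 symbols, 2 not found) were chosen with earlier results of these data known. Lists share genes and are described by counts and medians.

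The rule for named genes took a fixed set, the 12 largest rises and 12 largest falls among called genes with a symbol (at 5 CPM or more on average in whichever group was higher, with groups apart), up to 4 called members of each list or its member with the largest change, and 5 genes per direction of each difference. Others are said to have been named after their values were seen.

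Alternatives were RLE scaling, no filter, at least 5 CPM in 2 libraries, fewer libraries in the fit, the replicate number as a block, a sex term, removal of haemoglobin, mitochondrial and cardiomyocyte genes, both Fuz KO 1 libraries left out, DESeq2 1.42.0 and each library left out. A block of Head and Tail libraries with the same genotype and number was added after seeing the data. Same-numbered Head and Tail libraries deviated together in each of the 4 genotypes. The correlations were 0.282 in DKO, 0.196 in Gpr161 KO, 0.437 in Fuz KO and 0.133 in WT, so the block is given beside the Tail minus Head count. Some same-numbered libraries of different genotypes deviated together as well, at 0.302 for Head Fuz KO with Head DKO and 0.242 for Tail Fuz KO with Tail DKO. Other such pairs were negative, as for Head WT with Head DKO at -0.0787. The pattern is therefore not particular to libraries of 1 genotype. A few genes that met the naming rule are not reported here.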

Additional observations from a re-analysis of the deposited data

Results flagged for a closer look

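These comparisons of effects were singled out because the difference between effects passed its own test in edgeR (adjusted p under 0.05). The first is the effect of losing Fuz in the Tail without Gpr161, less that with Gpr161, with 9 genes called. The differences on the log2 scale were 2.37 for Pax3, 6.96 for Pax7, 4.97 for Msx3, 3.58 for Sox10, 1.88 for the gene model AI506816 and 9.64 for Atoh1. The fitted value of Atoh1 depends on the prior count, since Tail Gpr161 KO libraries had no reads of it.

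The second is the effect of losing Fuz without Gpr161 in the Tail less that in the Head, with 57 genes called. Differences were 3.59 for Foxl1, 3.40 for Pax7, 3.51 for Sox10, 3.72 for Dmrt2 and 1.52 for Sema3a. They were -5.21 for Evx1, -5.37 for Trh, -5.41 for the growth factor gene Fgf17 and -5.84 for Hes3, a repressor of neuronal differentiation. Heart and muscle genes had differences of 9.67 for Myl4, 8.55 for Myh6, 7.33 for Alpk2, 7.15 for Myl7 and 7.13 for Asb2. These moved with the Head Gpr161 KO libraries, where Myl7 had 187 and 41.3 CPM and Asb2 had 20.99 and 6.77 CPM, and with the cardiomyocyte marker sums of 2168 and 476 CPM in those libraries.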

How the results depend on the processing

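Of the 86 named genes, 0 changed sign in a call between Tail DKO and Tail Gpr161 KO under any alternative run. Each group had 2 libraries, and the number of calls moved with the libraries and settings of the fit. The 111 genes called in that comparison became 794 without a filter, 231 with a replicate block, 47 with a sex term, 896 without both Fuz KO 1 libraries, 718 with DESeq2, 59 in the 8 Tail libraries alone and 386 in the 4 libraries alone, and 13 to 25 when a library was left out. Fuz itself missed the threshold with a sex term, in the 8 Tail libraries alone and without any 1 of the 4 libraries, with an adjusted p of up to 0.154. Of the 111, 110 were shared under RLE scaling, 110 without the Fuz KO 1 libraries, 111 with DESeq2 and 40 with the sex term. The share of calls that were higher was 52.8% without a filter, 41.7% in the 4 libraries alone, 40.4% with the sex term and 61.5% without Tail DKO 2. The 39 Gpr161 KO changes called the opposite way became 349 without a filter, 64 with a replicate block, 16 with a sex term, 164 without both Fuz KO 1 libraries, 168 with DESeq2, 21 in the Tail alone, 128 in the groups alone and 6 to 22 with a library left out. The 38 chosen in the Head became 221, 77, 16, 209 and 176 in the first 5 of these settings, 294 in the groups alone and 6 to 17 with a library left out. The 9 genes whose Fuz effect differed with Gpr161 became 549 without a filter, 124 with DESeq2, 4 in the Tail alone and 7 to 105 with a library left out. The 57 genes that differed between Tail and Head became 626 without a filter, 94 with a replicate block, 503 with a block of Head and Tail libraries within a genotype, 201 without both Fuz KO 1 libraries, 344 with DESeq2, 109 in the groups alone and 11 to 73 with a library left out. For the 39 and the 38, each fit chose its own Gpr161 KO changes, so these counts are not shares of the genes chosen in the main fit. The causes of these moves were not tested. Same-numbered Tail DKO and Tail Gpr161 KO libraries deviated together only weakly (r = 0.0672), so the number is not taken to pair them. Where a group was left with 1 library, it was assumed to vary like the others. All other settings stayed within 1.5 times of the count.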
